A study of Mus musculus with 2 samples.

Results

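The genes described here are 10 enzymes that carry sulfur from homocysteine to cysteine and on to sulfide, sulfite, sulfate and taurine. They were chosen by function, as the transsulfuration enzymes Cbs and Cth, the sulfide and sulfur oxidation enzymes Mpst, Sqor, Ethe1, Tst and Suox, and the enzymes of cysteine breakdown Cdo1, Csad and Got1. All probe sets annotated to these genes were taken, 12 of the 22690 on the array, and the 10 genes compare with 12393 genes represented on the array. The RNA came from homozygous Cbs null females and from control females, all 4 months old and on a mixed C57Bl/6J X OLA129 background. It was taken on day 8 of pregnancy from the uterus between implantation sites, where no embryo is attached. Each group was 1 Affymetrix array, so no difference below has a replicate check, no test was possible and no p-value is given. The labels used here do not give the altered part of Cbs, the exact genotype of the controls or whether a sample was 1 animal or a pool.

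CBS (cystathionine beta-synthase) joins homocysteine to serine, and CTH (cystathionine gamma-lyase) splits the product to give cysteine. Both can also release hydrogen sulfide, as does MPST from the keto acid that cysteine aminotransferases such as GOT1 make. In mitochondria SQOR passes the electrons of sulfide to ubiquinone, ETHE1 oxidises the resulting persulfide to sulfite, TST moves sulfur between sulfite, persulfide and thiosulfate, and SUOX turns sulfite into sulfate. Cysteine is otherwise oxidised by CDO1 and decarboxylated by CSAD on the way to taurine. Loss of CBS raises homocysteine, and female mice without it are known to be poorly fertile.

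Promoter windows are shown for Cbs, the gene altered in the null females, and for Sqor and Suox, the sulfide oxidation genes whose signals were furthest below control. The windows are RefSeq sequence of build GRCm38.p6, from 250 bases before to 50 bases after the annotated start, and each runs 5′ to 3′ on the strand of its gene. They lie at chr17:31637156-31637455 on the minus strand for Cbs, chr2:122771463-122771762 on the plus strand for Sqor and chr10:128673869-128674168 on the minus strand for Suox. Capitals mark every match to the GC box GGGCGG or to CCAAT, on either strand.
Cbs: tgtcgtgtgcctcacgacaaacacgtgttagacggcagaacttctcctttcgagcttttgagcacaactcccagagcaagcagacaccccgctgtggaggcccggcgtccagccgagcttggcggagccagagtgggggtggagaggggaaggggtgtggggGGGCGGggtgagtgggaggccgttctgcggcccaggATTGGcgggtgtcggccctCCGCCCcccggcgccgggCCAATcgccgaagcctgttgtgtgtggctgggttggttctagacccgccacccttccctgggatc
Sqor: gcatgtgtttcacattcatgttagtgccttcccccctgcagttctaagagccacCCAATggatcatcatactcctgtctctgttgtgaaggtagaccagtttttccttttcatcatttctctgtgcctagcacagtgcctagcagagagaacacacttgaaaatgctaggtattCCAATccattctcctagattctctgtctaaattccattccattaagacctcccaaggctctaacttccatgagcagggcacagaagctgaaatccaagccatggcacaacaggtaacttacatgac
Suox: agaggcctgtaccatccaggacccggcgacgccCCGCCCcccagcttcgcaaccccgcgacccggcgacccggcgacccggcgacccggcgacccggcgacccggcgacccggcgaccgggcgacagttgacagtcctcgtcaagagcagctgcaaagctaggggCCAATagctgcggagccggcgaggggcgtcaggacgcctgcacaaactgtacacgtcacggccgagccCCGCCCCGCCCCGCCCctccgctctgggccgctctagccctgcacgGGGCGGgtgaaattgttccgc

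The 3 windows differed in composition. The Suox window was 73.3% G and C with 40 CpG dinucleotides, the Cbs window 66.7% with 22, and the Sqor window 45% with 0, where the median of 32851 mouse windows was 52.7% and 7. The Suox window held 5 GC box matches, some of them overlapping, beside 1 CCAAT match. The Cbs window held 2 of each, and the Sqor window held 2 CCAAT matches and 0 GC boxes. Of all windows, 35.7% held a GC box and 37.4% a CCAAT match. The Cbs window also had 1 match to CACGTG, found in 7.15% of windows, and none of the 3 held TATAAA (13.6% of windows) or TGACNNNGC (12.4%), the core of the antioxidant response element. A match here is a run of letters and not a measured binding site. Windows were found for 7 of the 10 genes, while Cth, Tst and Cdo1 had no entry.

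Cbs gave a weak signal in both samples and was lower in the Cbs null sample. Its brighter probe set read 42.6 in the Cbs null sample and 79.8 in the control sample. Signals are in the deposited linear units, and a floor of 43.2, the 40th percentile over all signals, replaced lower values, because weak signals cannot be ranked reliably. The Cbs null signal thus lay just below the floor, and the control signal was 1.85 times the floor. With the Cbs null signal set to the floor, Cbs was 1.85-fold lower, a log2 ratio of Cbs null over control of -0.89. The 8407 measured genes are those above the floor on at least 1 array, which Cbs was in the control sample only. Its log2 ratio was therefore set by the control signal and the floor, and it is not ranked among them. The second Cbs probe set read 25.1 in the Cbs null sample and 39.8 in the control sample, both below the floor, so it gives no fold. Neither probe set is known to lie within the altered part of the gene, so the values do not say how much Cbs transcript was left. Among 1918 genes whose control signal was within 1.5-fold of that of Cbs, 96 (5.01%) had a Cbs null signal no higher than the floor.

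Cth, the enzyme directly after CBS, was level in both samples. Its only probe set read 122.4 in the Cbs null sample and 120.6 in the control sample, a log2 ratio of 0.02. Because Cbs counted as measured only through the control sample, where it was above the floor, its direction was fixed by that choice.

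**Figure D1:**
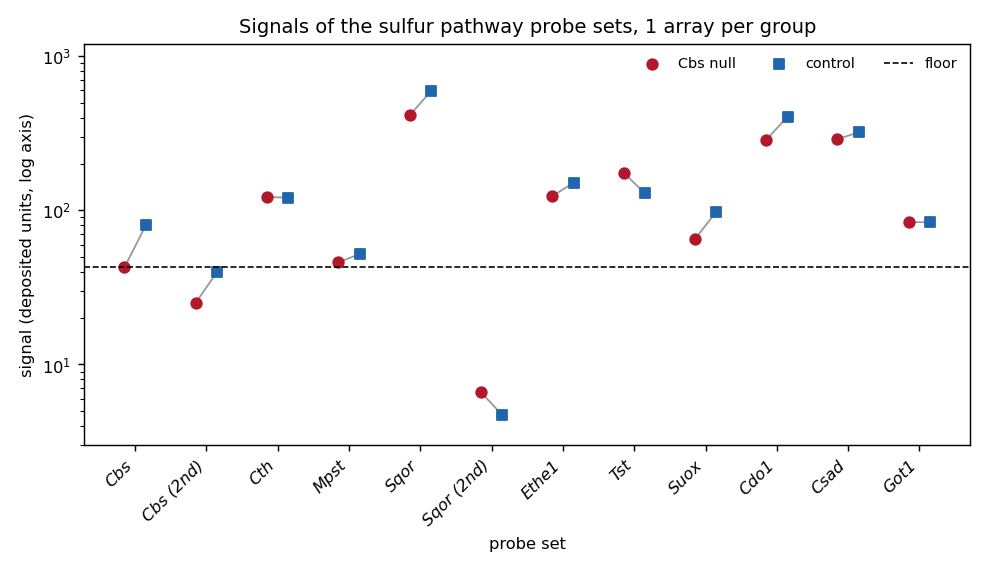
Deposited signal (log axis) of each of the 12 probe sets of the 10 genes, with circles for the Cbs null array, squares for the control array and a dashed line at the floor of 43.2; "2nd" marks the weaker probe set of a gene. Sqor, Suox, Cdo1 and Cbs are lower in the Cbs null sample, Tst is higher, and Cth and Got1 are level.

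Of the 5 genes of sulfide and sulfur oxidation, 4 had a log2 ratio below 0 and Tst had one above it. In size, 0 passed 2-fold and 1, Suox, passed 1.5-fold. Over all measured genes, 46.5% had a log2 ratio below 0, 1.51% passed 2-fold and 6.97% passed 1.5-fold in either direction, so counts among 5 genes say little. Mpst was too near the floor in the control sample to be called lower at either size. Sqor, the mitochondrial sulfide quinone oxidoreductase, read 412.8 in the Cbs null sample and 594.1 in the control sample, 1.44-fold lower. Its second probe set read 6.6 in the Cbs null sample and 4.7 in the control sample, far below the floor on both arrays, so the Sqor difference rests on 1 probe set. Ethe1, the persulfide dioxygenase, read 123.6 in the Cbs null sample and 151 in the control sample, 1.22-fold lower. Suox, the sulfite oxidase at the end of the route, read 65 in the Cbs null sample and 97.7 in the control sample, 1.503-fold lower. These 3 enzymes act in sequence from sulfide to sulfate, and their log2 ratios were -0.53 for Sqor, -0.29 for Ethe1 and -0.59 for Suox. Tst, whose enzyme also acts on that route, stood on the other side of 0, at 0.44.

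The log2 ratios of the sulfurtransferase genes Tst and Mpst differed in sign. That of Mpst was smaller than the measurement error of 0.24 described below, so the direction of Mpst is not settled. Tst, the rhodanese, read 175.4 in the Cbs null sample and 128.9 in the control sample, 1.36-fold higher and the highest log2 ratio of the 10 genes at 0.44. Mpst, which forms sulfide from mercaptopyruvate, read 46 in the Cbs null sample and 52 in the control sample, a log2 ratio of -0.18 from signals close to the floor. The log2 ratio of Tst was 0.62 above that of Mpst and 0.97 above that of Sqor. Tst and Mpst are next to each other on chromosome 15 in the RefSeq gene order and encode enzymes of the same rhodanese family.

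In cysteine breakdown, the first enzyme of the taurine route differed most. Cdo1, the cysteine dioxygenase, read 285.9 in the Cbs null sample and 406.1 in the control sample, 1.42-fold lower. Csad, the decarboxylase that acts on the product of CDO1, read 289.3 in the Cbs null sample and 321.2 in the control sample, a log2 ratio of -0.15. Got1, the cytosolic aspartate aminotransferase, read 84 in the Cbs null sample and 83.6 in the control sample, a log2 ratio of 0.01. The Cdo1 log2 ratio was thus below that of Csad by a difference of -0.36.

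None of the 10 genes was called 2-fold different, the size rule used here, so 0 were higher and 0 lower, where 1.51% of measured genes passed 2-fold in either direction, 0.797% higher and 0.714% lower. At 1.5-fold, 2 of the 10 were lower, Cbs and Suox, against 3.38% of measured genes that were lower at that size and 6.97% in either direction. Without Cbs, whose direction was fixed by the choice of measured genes, it was 1 of 9. Suox, at 1.503-fold, lay just inside that limit and Sqor, at 1.44-fold, just outside it. At 1.5-fold 0 of the 10 were higher, against 3.59%. In all, 7 of the 10, or 6 of 9 without Cbs, had a log2 ratio below 0, where 46.5% of measured genes did. Their median log2 ratio was -0.23, or -0.18 without Cbs, beside 0.02 over all measured genes.

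Measurement error within the arrays gives a scale for these values. Pairs of probe sets of one gene, over 2757 genes, differed with an SD of 0.22 for a single log2 ratio, rising to 0.24 for pairs whose weaker member read less than 4 times the floor and falling to 0.18 for the other pairs. Of the 9 members above the floor on both arrays, the log2 ratios of Suox, Sqor, Cdo1, Tst and Ethe1 were larger than 0.24 in size and those of Cth, Got1, Csad and Mpst were smaller. Such a size is common on these arrays, since 32.8% of the 7942 genes above the floor on both also passed it. That SD does not include variation between mice. Around each gene, the 1000 genes of most similar signal had a central 95% range of log2 ratios from -0.61 to 0.52 for Sqor, from -0.53 to 0.56 for Cdo1, from -0.70 to 0.82 for Suox and from -0.66 to 0.62 for Tst. These 4 genes lay inside their ranges. Cbs has no such comparison, because its Cbs null value was set to the floor.

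**Figure D2:**
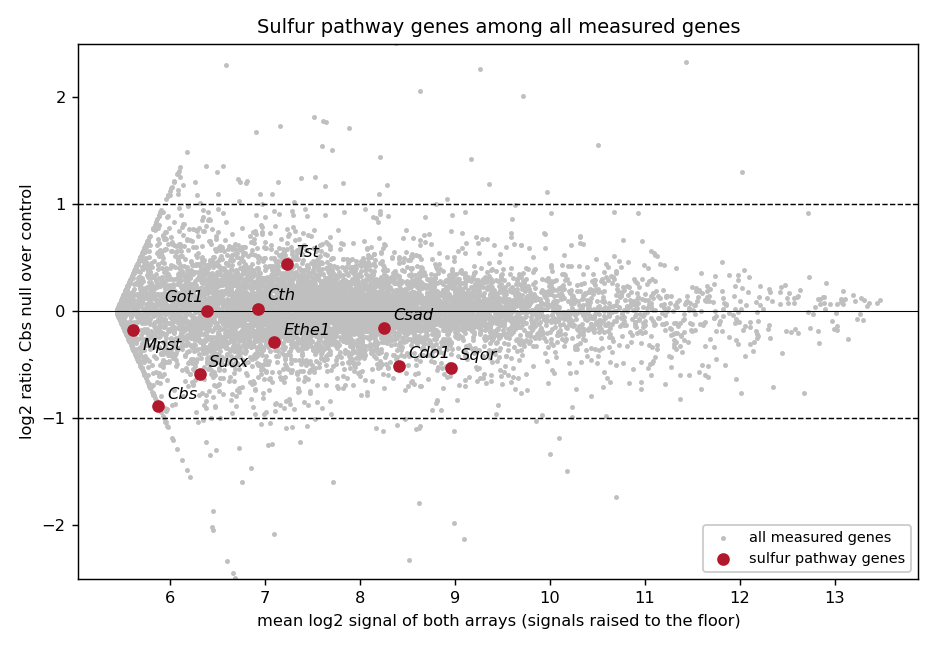
Log2 ratio of Cbs null over control against mean log2 signal of both arrays for all 8407 measured genes (grey) and the 10 sulfur pathway genes (red), with signals raised to the floor and dashed lines at 2-fold; 13 genes lie outside the plotted range of 2.5 on either side. All 10 genes lie between the dashed lines, with Cbs nearest to the lower one, on the edge formed by genes whose Cbs null signal was at the floor. Cbs, Mpst and Got1 could not lie below the lower line, because their control signals were less than 2 times the floor.

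The genes that supply or use the same metabolites were described from 12 lists holding 108 genes, of which 73 were measured. In these lists 1 gene was at least 2-fold higher and 0 were 2-fold lower. At 1.5-fold 5 were higher and 0 lower, and the median log2 ratio of the 73 genes was 0.07. Of all measured genes, 0.797% were higher and 0.714% lower at 2-fold, and 3.59% were higher and 3.38% lower at 1.5-fold. The gene past 2-fold was Slc1a1, a glutamate transporter that also carries cysteine, at 168.7 in the Cbs null sample and 73.6 in the control sample, 2.29-fold higher. Of the other 4 measured cysteine and cystine transport genes, Slc7a10 had the lowest log2 ratio, -0.45, and it was picked out after its value was seen.

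On the homocysteine side, 5 of 9 methionine cycle genes on the array were measured, with a median log2 ratio of 0.12. Mtrr, which reactivates methionine synthase, read 121.5 in the Cbs null sample and 80.3 in the control sample, 1.51-fold higher. The 6 measured genes of serine supply, the second substrate of CBS, ran from -0.17 to 0.12, and 0 of them reached 1.5-fold. Phgdh, the first enzyme of serine synthesis, stood at 0.07 and Shmt2, a serine hydroxymethyltransferase, at 0.12. Pdxk, which makes the pyridoxal phosphate that CBS, CTH, CSAD and GOT1 need, stood at 0.09 and Pdxp at 0.00.

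Downstream of cysteine, 7 of 9 measured genes of glutathione synthesis and breakdown had a log2 ratio above 0. Of all measured genes, 46.5% had one below 0. The median of the 9 genes was 0.34, beside 0.02 over all measured genes. The largest was Chac2, a glutathione-degrading cyclotransferase, at 91.2 in the Cbs null sample and 57.2 in the control sample, 1.59-fold higher. In the taurine branch, the taurine transporter gene Slc6a6 stood at 0.50 and Fmo1, which oxidises hypotaurine, at 0.29, opposite in sign to Cdo1 and Csad. No gene of either list was lower by 1.5-fold.

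Genes that serve the sulfide oxidation enzymes had list medians from -0.14 to 0.15. The 8 measured ubiquinone synthesis genes, which make the electron acceptor of SQOR, had a median of -0.14. Of these, 6 were below 0, where 46.5% of all measured genes were. The exception by size was Coq8a, at 149.2 in the Cbs null sample and 93.6 in the control sample, 1.59-fold higher. The 9 persulfide and thioredoxin partners had a median of -0.07, with Txn1 (thioredoxin) at 0.03 and Prdx3, a mitochondrial peroxiredoxin, at -0.18. All 5 measured genes of the molybdenum cofactor list, the cofactor of SUOX, were above 0, but small, from 0.05 to 0.26. Their median was 0.14, with Mocs2 at 0.06 and Aox1, another enzyme that uses the cofactor, at 0.05. The 8 sulfate genes had a median of 0.15, with Papss1, which activates sulfate, at 0.16 and Sumf1 at 0.14.

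Of the 8 measured partners of GOT1 in the malate and aspartate shuttle and in transamination, 1 reached 1.5-fold. This was Gpt2, the mitochondrial alanine aminotransferase, at 241 in the Cbs null sample and 155.4 in the control sample, 1.55-fold higher. The list median was 0.08. Of 6 measured regulators of sulfur amino acid genes, the stress transcription factor gene Atf4 stood at -0.17 and the GC box binding factor gene Sp1 at 0.25, with a list median of 0.06.

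**Figure D3:**
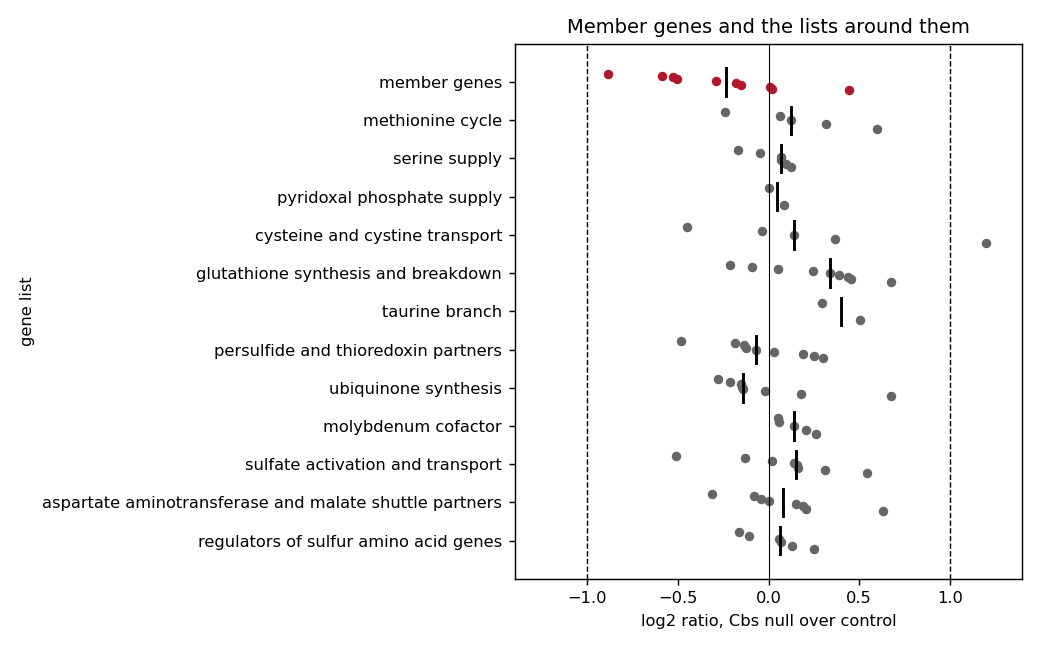
Log2 ratio of Cbs null over control for each of the 10 member genes (red, top row) and for the measured genes of 12 surrounding lists (grey), with a bar at the median of each row and dashed lines at 2-fold. The member genes have a median of -0.23, and the lists have medians from -0.14 (ubiquinone synthesis) to 0.40 (taurine branch, 2 genes).

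Chromosomal neighbours of Cbs were compared because a mutated allele carries its surrounding stretch of chromosome 17. Of the 20 protein-coding genes nearest in order, 10 on each side, 10 were measured, and 0 of these were 2-fold apart. Over all measured genes, 1.51% were 2-fold apart and 6.97% were 1.5-fold apart in either direction, so counts this low among 10 genes say little. Pknox1, next to Cbs on one side, stood at 0.38 and U2af1, next to it on the other, at 0.03. The 10 neighbours ran from -0.31 for Wdr4 to 0.60 for Pde9a, which read 92.9 in the Cbs null sample and 61.3 in the control sample and was the only one past 1.5-fold. Cbs at -0.89 lay below all of them, but the comparison is not like for like. The measured neighbours were above the floor on both arrays, while the direction of Cbs was fixed by the choice of measured genes.

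**Figure D4:**
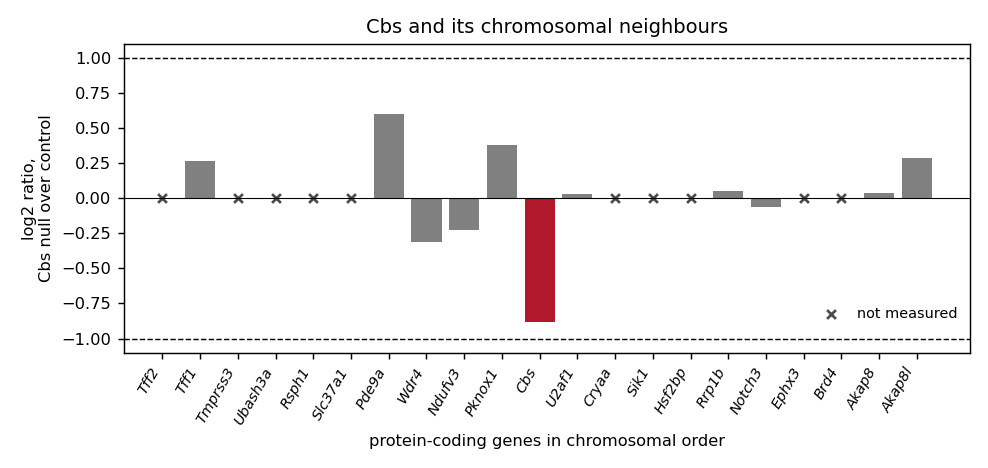
Log2 ratio of Cbs null over control for Cbs (red) and its 20 nearest protein-coding genes in RefSeq order (grey bars), with crosses for genes with no own probe set or below the floor on both arrays and dashed lines at 2-fold. Cbs stands at -0.89, a direction fixed because it was above the floor in the control sample only. The measured neighbours, above the floor on both arrays, lie between -0.31 and 0.60.

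By Euclidean distance over the log2 signals of the 2 arrays, the genes nearest to Cbs were Tnfrsf4, Col12a1 and Dok1. Their signals lay between 41.7 and 43.8 in the Cbs null sample and between 79.2 and 82.7 in the control sample. That distance used the deposited signals, some of them below the floor, so the order of these genes is not reliable, and a likeness over 2 values is weak.

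The labelled tissue was checked against its markers. All 8 smooth muscle markers were above the floor on both arrays, as were 7 of 9 uterine epithelium markers and 6 of 8 decidual stroma markers. Muc1 and Wnt7a were below the floor in the control sample, and Tdo2 and Prl8a2 in the Cbs null sample. Marker genes of several cell types differed between the samples. For scale, 0.714% of all measured genes were 2-fold lower and 0.797% 2-fold higher, and at 1.5-fold 3.38% were lower and 3.59% higher. A log2 ratio below 0 was found in 46.5% of all measured genes. In bulk tissue, fewer cells of a type and less RNA per cell cannot be told apart. All 8 smooth muscle markers were lower, with a median log2 ratio of -0.57 and a summed signal of 27032 in the Cbs null sample and 34213 in the control sample, and 4 of them, Actg2, Smtn, Des and Lmod1, were at least 1.5-fold lower. All 9 uterine epithelium markers were higher, with a summed signal of 5562 in the Cbs null sample and 3320 in the control sample. Of these, Muc1 and Wnt7a passed the floor in the Cbs null sample alone, so that their direction was fixed. The largest differences were those of Muc1, 2.80-fold with its control signal set to the floor, and Ltf, 2.69-fold. All 9 macrophage and dendritic markers were higher, at 6979 in the Cbs null sample and 4777 in the control sample, led by C1qa at 0.87. The 4 measured adipocyte markers were lower, with a median of -0.32, Fabp4 at -0.37 and Car3 at -0.16. The 5 uterine natural killer markers summed to 226 in the Cbs null sample and 601 in the control sample. Of these, Gzma, Gzmb and Gzmc counted as measured only through the control sample, where they were at least 2-fold higher than in the Cbs null sample, and the 2 above the floor on both arrays, Prf1 and Klrd1, stood at -0.22 and -0.11. Of the 8 decidual stroma markers 3 were at least 2-fold lower, Fst and also Tdo2 and Prl8a2, which were above the floor in the control sample only, while the median was 0.01. The 4 endothelium markers had a median of 0.03, with Pecam1 at 0.12 and Kdr at -0.33. Among markers of liver and blood, Cyp2e1 was 2.17-fold higher, Alb stood at 0.50, Alas2 at 0.72 and Hbb-b2 at -0.20. The Alb signals were near the floor, at 63.6 in the Cbs null sample and 45.1 in the control sample. Apoa1, Apob and Slc4a1 were below the floor on both arrays. No marker on the array was at 0 in either sample. Marker lists with a median below 0 were smooth muscle (-0.57), adipocyte (-0.32) and uterine natural killer (-1.39). The natural killer median is the value of Gzma, whose direction was fixed because only the control sample passed the floor. The other lists had medians above 0, among them uterine epithelium (0.63) and macrophage and dendritic (0.52). The log2 ratios of Sqor, Suox and Cdo1 lay from -0.59 to -0.51, and the part of tissue make-up in them was not tested.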

How the data were processed

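Biotin-labelled cRNA from 2 microg of RNA was hybridised to 1 array per group, per the labels' protocols. The authors deposited an intensity for each probe set, not log transformed. The submitters' processing notes name GCOS, version 1.4. How probes were summarised or scaled is not stated there. The 2% trimmed mean was 200.07 in the Cbs null sample and 200.08 in the control sample, so the deposited values were used unchanged, and each difference is relative to the whole array. The Gapdh 3′ to 5′ ratio was 1.25 in the Cbs null sample and 1.31 in the control sample, and that of Actb 2.05 in the Cbs null sample and 1.95 in the control sample.

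The platform annotation gave 1 symbol to 20380 probe sets, several to 691 and none to 1555, and 20351 of the first kind matched a RefSeq gene ID (GRCm38.p6). No build is named with the values, so that table gave names and gene order only. A gene stood on its 1-symbol probe set of highest mean log2 signal. Members, lists and settings were chosen with earlier results of these data known. All 10 members were named, and of each other list up to 4 genes at least 1.5-fold apart, or else the 2 of highest signal; any further gene is named as a neighbour, an extreme, a marker below the floor or the rest of a short list. The calculation was tested on simulated data, in Python 3.11.15 with pandas 2.3.3. The number of arrays limits the precision.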

Additional observations from a re-analysis of the deposited data

How the results depend on the processing

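Results were recomputed with the arrays centred, with quantile normalization, with a 20th or a 60th percentile floor, with a pseudocount of 16, with all probe sets of a gene averaged, without _s_at and _x_at probe sets, and at 1.5-fold and 3-fold. Of 65 member values, 63 stayed within 0.22 of the reported log2 ratio. Part of these could not change. A gene with 1 probe set without such a suffix, above the floor on both arrays, keeps its value under another floor that it still passes. Averaging probe sets and leaving out suffixed ones do not change it either. The 63 are thus no measure of how firm the values are. With probe sets averaged, Cbs was -0.44 and Sqor -0.26, since the second probe set of each is below the floor and adds a log2 ratio of 0. With the pseudocount, Cbs was -0.71. Cbs, Mpst, Suox and Got1 gave no value with the 60th percentile floor, and Cbs gave none without the suffixed probe sets. Suox, past 1.5-fold in the main setting, stood at -0.49 with the pseudocount, short of 1.5-fold. Got1 changed sign around 0 with centring and with quantile normalization, at -0.01 in both. The median of the member genes ran from -0.25 to -0.18, over 6 genes with the 60th percentile floor and 9 without the suffixed probe sets. The 0 member genes 2-fold lower became 2 at 1.5-fold. Over all measured genes, the 67 higher and 60 lower became 302 higher and 284 lower at 1.5-fold, 16 higher and 22 lower at 3-fold, 242 higher and 213 lower with the 20th percentile floor, and 30 higher and 31 lower with the 60th. Of 100 list medians, 1 moved by more than 0.22, that of the decidual stroma list, to -0.91 with the 60th percentile floor. No paired analysis was possible because each group had 1 array and no test was made.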
